A study of Mus musculus with 8 samples.

Results

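Snhg14 and Kcnq1ot1 are long noncoding RNAs of imprinted regions, and 18 of the 2055 sites in the authors' deposited table of m6A differences between aged and young mouse cortex cells carry 1 of these gene names, 16 of them Snhg14 and 2 of them Kcnq1ot1. The 18 sites were selected on gene name within a table of sites that differ between these aged and young cells, and all 18 are described. The authors' filters are not stated in the sources used here. Every listed site has an adjusted p under 0.05, mean C-to-U values whose log2 ratio is at least 0.58 in size, and at least 25 methylated cells over both ages, so these measures are counted here as having chosen the sites. The cells came from the cortex of mice with the genotype APOBEC1-YTH, which make a cytidine deaminase joined to the m6A-binding YTH domain (m6A is N6-methyladenosine). This protein changes C to U close to m6A in the living cell, and the changes are read by single-cell sequencing (scDART-seq). A cell with such a change at a site is called methylated here.

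The aged mice were 12 to 14 months old when tamoxifen began. The dose was 20 mg/kg, given over 5 days at intervals of 24 h, and tissue was taken 7 days after dosing ended. The table covers 846 aged cells and 2623 young cells. The 8 libraries are all aged, as 4 lanes of each of 2 sublibraries, and they are not biological replicates. Young cells came from a companion series, so age and series cannot be told apart. The sources used here do not give the age, treatment and kit of the young mice, the number of mice of either age or the promoter that drives the fusion. The sample protocols describe dissociated, fixed whole cells and polyA RNA, whereas the design text describes NeuN-stained nuclei and total RNA. The table gives no value per cell type, so the cells could not be checked against marker genes.

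Imprinted genes are expressed from only the maternal or only the paternal copy. In mouse neurons the paternal copy produces a very long RNA, part of which is called Snhg14, that runs through tandem arrays of small nucleolar RNA (snoRNA) genes and on into Ube3a, a ubiquitin ligase gene, where it is transcribed antisense and silences the paternal Ube3a copy. Kcnq1ot1 is transcribed from the paternal copy antisense to the potassium channel gene Kcnq1, and in mouse it is known for silencing neighbouring genes on that chromosome. The m6A mark is commonly found in the RNA motif AAC or GAC, where the base after the methylated A is a C, the base that the fusion edits.

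In GENCODE M21 (GRCm38, the assembly that mm10 names), Snhg14 (ENSMUSG00000100826.6) spans chr7:59307924-59975759 on the minus strand, a length of 668 kb, with 15 annotated transcripts and 75 distinct exons. Kcnq1ot1 (ENSMUSG00000101609.2) is annotated as a single exon of 93.1 kb, chr7:143203458-143296549, also on the minus strand, within the span of Kcnq1. Each of the 16 Snhg14 sites lay in an annotated exon and was assigned to the first transcript, in order of name, that holds it. This gave 5 transcripts, and others that share these exons were not counted. The sites are numbered S1 to S16 from the 5′ end of the gene. The Kcnq1ot1 sites are numbered K1 and K2 in the same way.

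All 16 Snhg14 sites lay between 262 and 588 kb from the annotated 5′ end, a stretch of 326 kb, in 3 groups separated by long intervals without a listed site. S1 to S4 fell between 262 and 306 kb, S5 to S12 between 523 and 529 kb, and S13 to S16 between 582 and 588 kb. The gene's span holds 208 annotated snoRNA genes on the same strand, of which 130 are 79 bases long and 68 are 94 bases long, and 0 of the 16 sites lay inside one. Snhg14 overlaps the annotated Ube3a gene by 3.61 kb at its 3′ end. That overlap held 0 listed Snhg14 sites, and the nearest, S16, was 76.6 kb away. K1 and K2 lay 42.3 and 73.8 kb from the 5′ end of Kcnq1ot1, 31.5 kb apart.

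**Figure D1:**
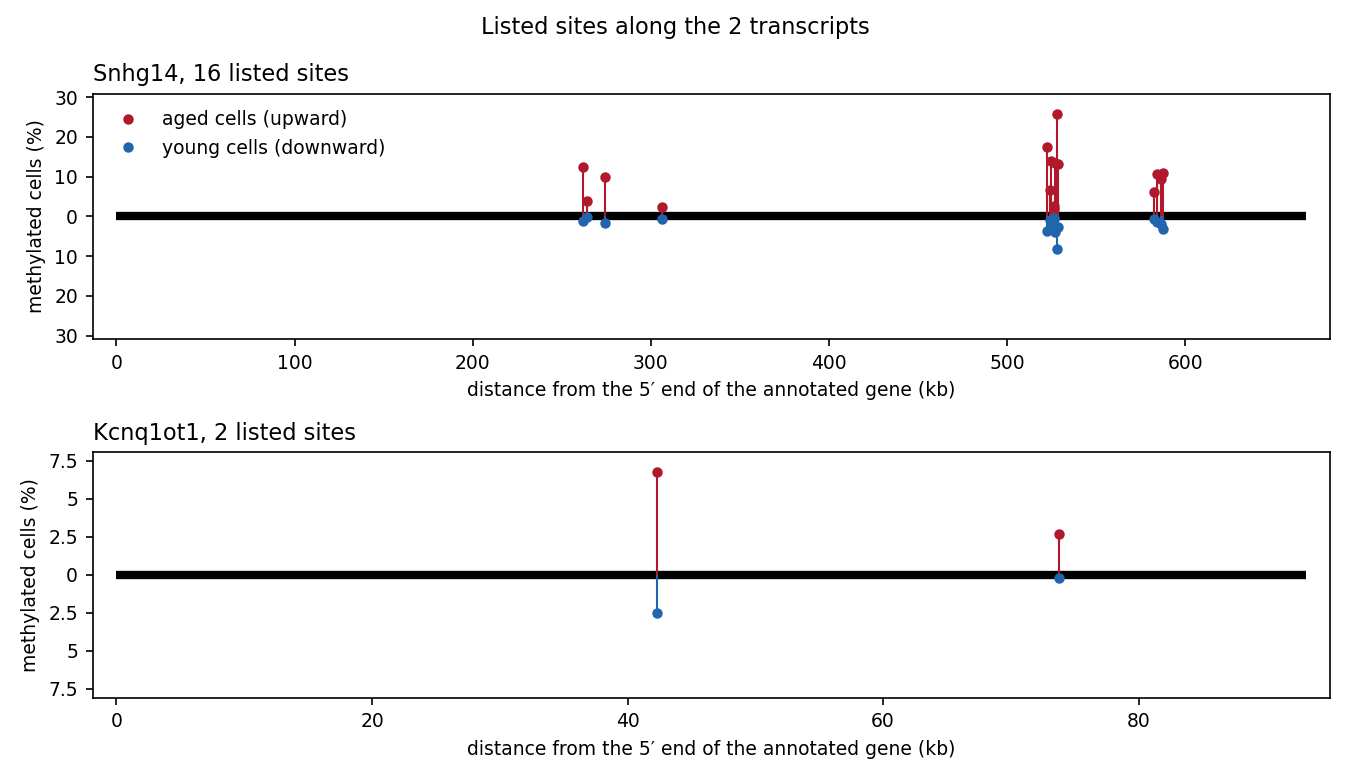
Share of methylated aged cells (red, upward) and young cells (blue, downward), in percent of the cells of that age, at each listed site of Snhg14 (top) and Kcnq1ot1 (bottom), against distance from the 5′ end of the annotated gene in kb. The Snhg14 sites fall into 3 groups between 262 and 588 kb, and at each of the 18 sites the red line is longer than the blue one.

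The sequences around the edited C of the Snhg14 sites are printed because several sites have the same one. They are 29 bases of the spliced transcript from the GENCODE exons, 5′ to 3′. The capitals mark the 3 bases before the edited C, the C itself (the fourth capital) and the base after it. At S7, S10, S12, S13, S14 and S15 the C is near the 3′ end of its exon. The last bases printed there come from the next exon, so the genome range printed for S7 need not hold them. The 41 bases searched for these sites below run into the next exon too.
S1 (chr7:59713925-59713953) and S3 (chr7:59701273-59701301): ttatgtcgtccAACCGagtctccatcgaa
S2 (chr7:59711452-59711480): tcatggaaaacGTGCAgaggaaattgccc
S4 (chr7:59669626-59669654): gagctaccagtAAACCccccccttttttt
S5 (chr7:59453180-59453208): gcttccctggaAGACAtttcatcccagca
S6 (chr7:59451312-59451340) and S11 (chr7:59447571-59447599): gcttccctggaAGACAtttcgtcccagca
S16 (chr7:59388150-59388178): gcttccctggaAGACAtttcctcccagca
S7 (chr7:59450828-59450856), S10, S12, S13, S14 and S15: ggaaggcagagAAACAcagataatcaggg
S8 (chr7:59449427-59449455): atatttcctccCAACAatccctctccagt
S9 (chr7:59449423-59449451): ttcctcccaacAATCCctctccagttcaa

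The sequences at the Kcnq1ot1 sites, shown because both follow a run of A, are given in the same form.
K1 (chr7:143254212-143254240): aaaaaaaaaaaAGACTggaaggaaataga
K2 (chr7:143222760-143222788): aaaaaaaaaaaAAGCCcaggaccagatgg

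At 12 of the 16 Snhg14 sites the edited C followed an A (75.0%, exact 95% interval 47.6 to 92.7), and the same 12 carried AAC or GAC. Over all listed sites placed on a C of an annotated exon, 76.9% of 1970 followed an A and 72.0% ended AAC or GAC on the transcript strand. Among the 4771 C bases counted in the annotated Snhg14 exons, 26.2% followed an A and 13.2% ended AAC or GAC. This count left out the first 20 bases and the last base of each transcript, unless another transcript covered them further in. Counted by site, Snhg14 thus had these bases at about the share of the whole table, but the share was not recounted with copies taken once. The exceptions were S1 and S3, where the edited C followed another C, S2, where it followed a G, and S9, where it followed a T.

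At Kcnq1ot1, K1 carried GAC and the C of K2 followed a G. Among the 18492 C bases of Kcnq1ot1 counted in the same way, 28.8% followed an A and 15.3% ended AAC or GAC. A run of 12 A stood within the 20 bases before the C of K1, and a run of 19 A within those before the C of K2. A run of at least 6 A in that window, a length chosen after these sequences were seen, stood before both Kcnq1ot1 sites. Such a run stood before 0 of the 16 Snhg14 sites, 16.8% of all listed sites placed on a C and 1.94% of the counted C bases of Kcnq1ot1.

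Repeated exons carried 15 of the 16 Snhg14 sites, since the noncoding exons between the snoRNA genes are themselves annotated in many near-identical copies. Exons of 46 bases held 6 sites, exons of 123 bases held 6 and exons of 147 bases held 3, each length counting its shortened copies. The remaining site, S4, lay in a 155-base exon. The 16 sites therefore had 9 distinct 21-base sequences around the edited C and stood at 7 distinct positions when copies were counted once. For 9 of the 16, the surrounding 41 bases occurred elsewhere in Snhg14 transcripts. This was so for 0 of the 2 Kcnq1ot1 sites. The sources used here do not give how reads that match several places were assigned, so a value at 1 copy may hold reads from another.

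The 46-base exon had 10 annotated copies, at least 93.5% identical, and the table listed the C at position 34, in 6 of them. Positions in an exon and substitutions are counted from the 5′ end of its full-length form, to which shortened copies were aligned, and a substitution gives the base of the full-length form first. All 10 copies have C at that position. In 9 of them it follows an A, and 6 of these 9 were listed. In the remaining one, which carries A33T relative to the copy of S7, the position was not listed. A C that was not listed, here and in the exons below, may still be edited, since the table holds sites that differ by age. Neighbouring listed copies lay 1869 to 1872 bases apart, except S12 and S13, which were 53813 bases apart with 3 unlisted copies between them. Each of the 6 sites lay 273 bases from the nearest annotated snoRNA, always one of 79 bases.

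The 123-base exon had 15 annotated copies, at least 85.2% identical, and the C at position 53 was listed in 4 of them (S5, S6, S11 and S16). Each of these stood 133 bases from a 79-base snoRNA. At position 53, 13 copies have C and 2 have T. A T in a copy and a C-to-U change give the same base in a read, and the part of such copies in the values was not tested. S8 and S9 lay together in 1 of the copies with T, chr7:59449384-59449506, at positions 66 and 70. Relative to the copy of S16, this exon carries C45A, C53T, G65A, C83A and G94T. With G65A it is the only one of the 14 copies covering position 66 in which the C there follows an A, and it is the copy in which that position was listed. At position 70 the reverse was seen: of the 14 copies covering it, the 1 in which the C follows an A, chr7:59619158-59619280, was not listed, and in the listed copy, that of S9, the C follows a T.

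The 147-base exon had 16 annotated copies, at least 96.6% identical. The C at position 88 was listed in 2 of them (S1 and S3). At that position 15 copies have C, and 1, chr7:59681404-59681550, carries C88T relative to the copy of S3. Position 40 was covered by 15 copies, all with C, and was listed in 1 (S2).

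**Figure D2:**
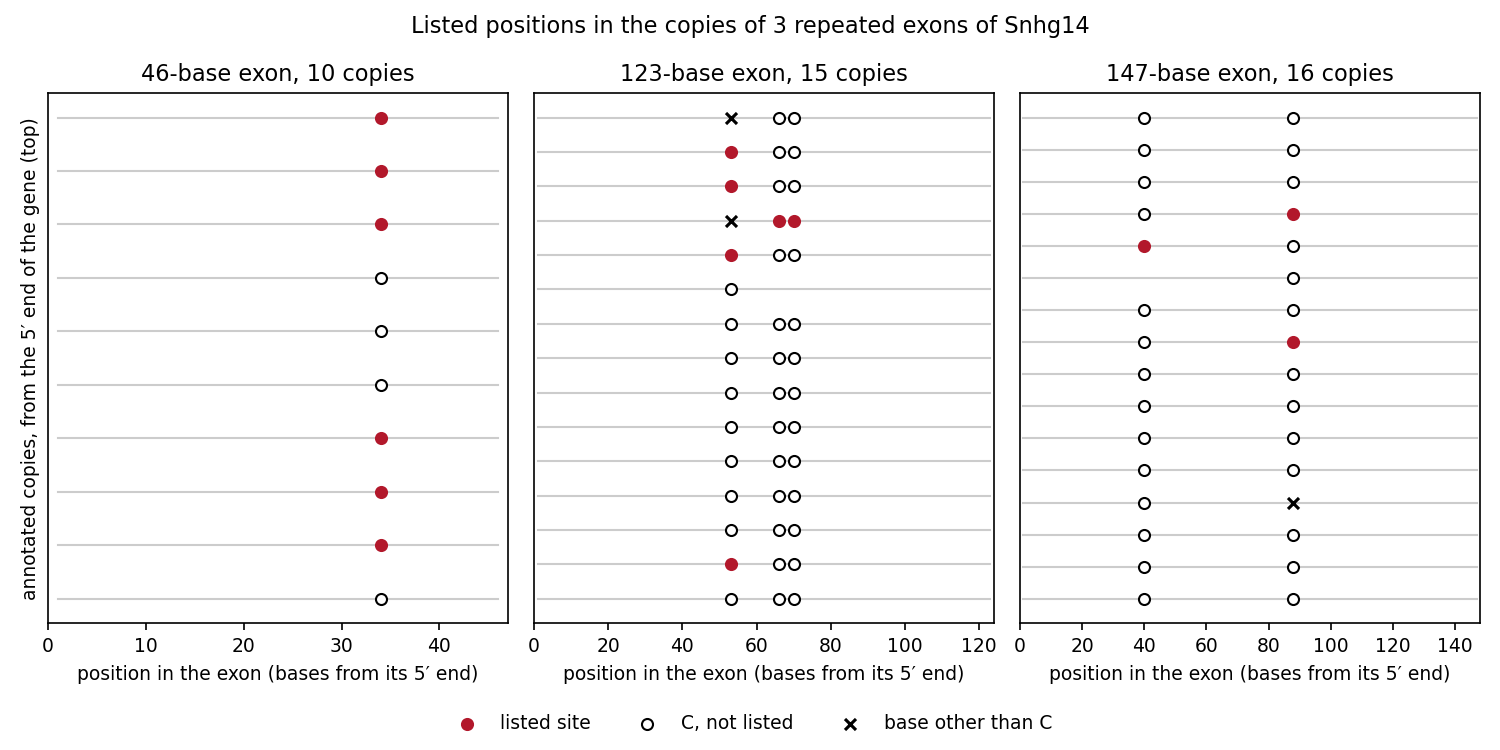
Annotated copies of the 46-base, 123-base and 147-base exons of Snhg14, 1 copy per line with the 5′ end of the gene at the top, against position in the exon in bases. Filled red circles are listed sites, open circles are C bases that were not listed, and crosses are bases other than C. Position 34 of the 46-base exon was listed in 6 of 10 copies, and position 53 of the 123-base exon in 4 of 15.

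The comparison of ages asked how the methylated cells and their C-to-U differed at these sites. By mean C-to-U over all cells of an age, 16 of 16 Snhg14 sites and 2 of 2 Kcnq1ot1 sites were higher in aged cells, where 41.5% of all listed sites were. By the share of methylated cells, all 18 were again higher in aged cells, where 75.4% of all listed sites were. By the C-to-U within methylated cells, 3 of the 16 Snhg14 sites and 0 of the 2 Kcnq1ot1 sites were higher in aged cells, where 31.9% of the listed sites with a methylated cell at both ages were. These are descriptions of values that placed the sites in the table, and no test was added. Values per library or mouse are not in the table, so intervals below cover counting error only, and they are exact binomial 95% intervals over cells.

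The Snhg14 sites had methylated cells at a median of 10.3% of aged cells (range 1.89 to 25.8%) and 1.60% of young cells (0.229 to 8.08%). The median fold of the shares, aged over young, was 5.01 (3.19 to 16.5). The intervals of the 2 ages did not overlap at any of the 18 sites. How many of all listed sites had this was not counted, and the table holds sites that differ by age. The count is therefore not read as a result about these 18 sites. Whether other listed sites have it less often was not tested. A cell without a read at a site counts as unmethylated in these shares. More methylation therefore cannot be told apart from more RNA or more reads per cell in the aged libraries, and read depth per site is not in the table.

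**Figure D3:**
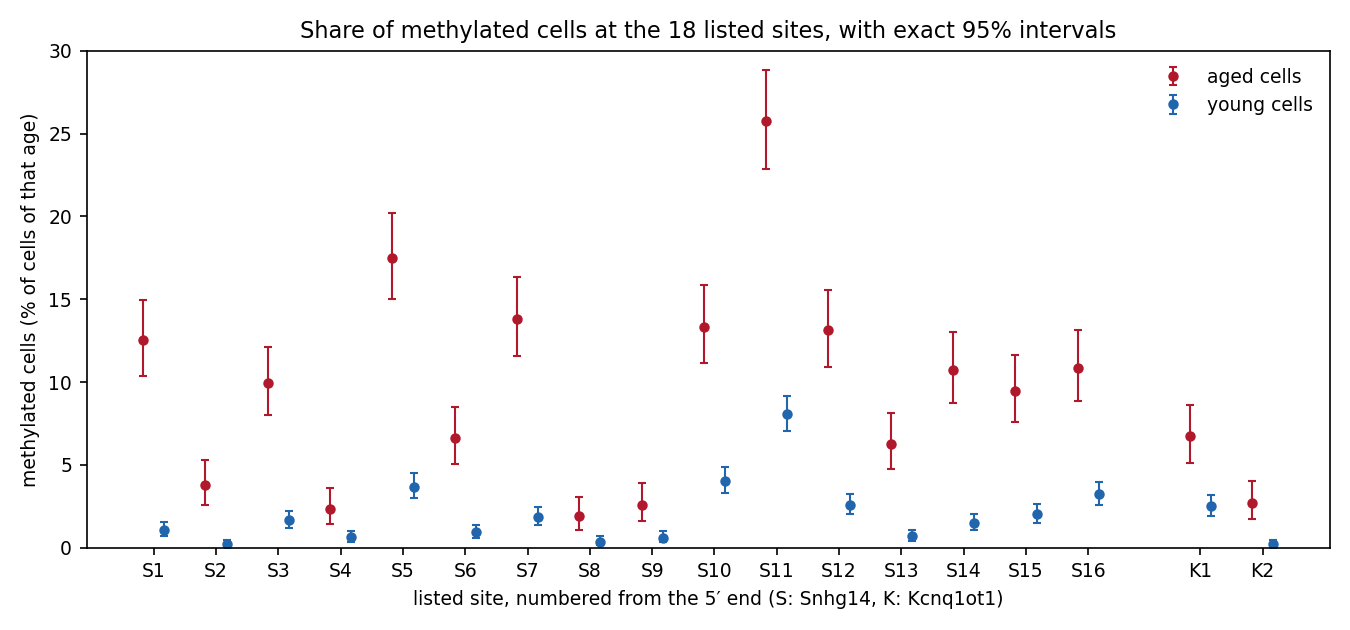
Share of methylated cells, in percent of the cells of that age, at the 18 listed sites, for aged cells (red, left of each pair) and young cells (blue), with bars for exact binomial 95% intervals that cover counting error only. The aged share is the higher one at every site, and S11 has the highest share at both ages.

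In the 46-base exons, position 34 gave 6 sites that share the 29 bases shown for S7. S7 (chr7:59450842) was methylated in 117 aged cells (13.8%) and 49 young cells (1.87%), and its mean C-to-U was 2.42% in aged cells and 0.600% in young cells. S10 (chr7:59448970) was methylated in 113 aged cells (13.4%) and 106 young cells (4.04%), with means of 2.82% in aged and 0.914% in young cells. S12 (chr7:59447101) was methylated in 111 aged cells (13.1%) and 68 young cells (2.59%), with means of 2.19% in aged cells and 0.752% in young cells. These 3 sites, of 1 array, had close shares in aged cells, and their shares in young cells were further apart.

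In the more distal array, S13 (chr7:59393288) was methylated in 53 aged cells (6.26%) and 18 young cells (0.686%), with means of 1.23% in aged and 0.221% in young cells. S14 (chr7:59391417) was methylated in 91 aged cells (10.8%) and 40 young cells (1.52%), with means of 1.40% in aged and 0.337% in young cells. S15 (chr7:59389547), whose exon carries C17A, was methylated in 80 aged cells (9.46%) and 53 young cells (2.02%), with means of 1.85% in aged and 0.738% in young cells. Across the 6 sites the fold of the shares ran from 3.31 at S10 to 9.13 at S13, and C-to-U within methylated cells was lower in aged cells at all 6. The authors' deposited table gives them adjusted p-values from 2.21e-14 (S7) to 1.41e-05 (S15).

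In the 123-base exons, S11 (chr7:59447585) had the largest number of methylated cells of the 18 sites. It was methylated in 218 aged cells, 25.8% (22.9 to 28.9), and in 212 young cells, 8.08% (7.07 to 9.19). Its mean C-to-U was 3.05% in aged cells and 1.62% in young cells, a log2 ratio of 0.92, the smallest of the Snhg14 sites. Within methylated cells it was 11.9% in aged cells and 20.0% in young cells.

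S5 (chr7:59453194), in the same position of another copy, had the largest mean C-to-U of the 18 sites in aged cells. It was methylated in 148 aged cells, 17.5% (15.0 to 20.2), and in 97 young cells, 3.70% (3.01 to 4.49). Its mean was 6.93% in aged cells and 1.004% in young cells, which is 2.79 on the log2 scale. The authors' deposited table gives S5 the smallest adjusted p of the 18, 5.43e-30. Unlike S11, it had the higher within-cell C-to-U in aged cells, at 39.6% against 27.2% in young cells.

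S6 (chr7:59451326) was methylated in 56 aged cells (6.62%) and 25 young cells (0.953%), with means of 2.02% in aged and 0.338% in young cells. S16 (chr7:59388164) was methylated in 92 aged cells (10.9%) and 85 young cells (3.24%), with means of 2.17% in aged and 0.919% in young cells. S6 and S11 have the same 29 bases and 1 other match each for their 41 bases, yet the share of S6 was the lower one at both ages.

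S8 (chr7:59449441) and S9 (chr7:59449437) stand 4 bases apart and may be read in the same molecules. S8 was methylated in 16 aged cells (1.89%) and 10 young cells (0.381%), with means of 0.560% in aged and 0.125% in young cells. S9 was methylated in 22 aged cells (2.60%) and 16 young cells (0.610%), with means of 1.13% in aged and 0.205% in young cells. They had few methylated cells, and their adjusted p-values in the authors' deposited table, 0.0161 for S8 and 0.014 for S9, were the largest among the Snhg14 sites.

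In the 147-base exons, S1 (chr7:59713939) was methylated in 106 aged cells, 12.5% (10.4 to 15.0), and in 28 young cells, 1.07% (0.710 to 1.54), a fold of 11.7. Its mean C-to-U was 1.29% in aged cells and 0.222% in young cells, and the adjusted p in the authors' deposited table was 2.7e-26. S3 (chr7:59701287), at the same position of another copy, was methylated in 84 aged cells (9.93%) and 44 young cells (1.68%), with means of 3.03% in aged and 0.697% in young cells. S1 thus had the higher share in aged cells and S3 the higher mean. S2 (chr7:59711466) was methylated in 32 aged cells (3.78%) and 6 young cells (0.229%), with means of 0.427% in aged and 0.0390% in young cells, and its fold of shares, 16.5, was the largest of the 18 and rests on those 6 young cells.

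S4 (chr7:59669640), the site outside the repeated exons, was methylated in 20 aged cells (2.36%) and 17 young cells (0.648%), with means of 0.510% in aged and 0.117% in young cells. Its edited C is followed by a run of C and then of T. Within methylated cells its C-to-U was 21.6% in aged cells and 18.1% in young cells.

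The order of the Snhg14 sites by share of methylated cells was similar at both ages, with a Spearman correlation of 0.885 between the aged and young shares over the 16 sites. For C-to-U within methylated cells the correlation was lower, at 0.565. The log2 ratio of shares tended to be smaller where the young share was larger (Spearman correlation -0.526), and it contains the young share. The sites share cells and, in part, sequence, so these values describe the 16 sites and carry no test. The 4 sites whose C did not follow an A had a median log2 ratio of mean C-to-U of 2.50, and the 12 whose C followed an A had 2.03.

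At Kcnq1ot1, K1 (chr7:143254226) was methylated in 57 aged cells, 6.74% (5.14 to 8.64), and in 66 young cells, 2.52% (1.95 to 3.19). Its mean C-to-U was 1.92% in aged cells and 1.09% in young cells, a log2 ratio of 0.81. The authors' deposited table gives K1 the largest adjusted p of the 18, 0.0313. K1 was thus nearest of the 18 to the limit of 0.58 below which no absolute log2 ratio is listed.

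K2 (chr7:143222774) was methylated in 23 aged cells, 2.72% (1.73 to 4.05), and in 6 young cells, 0.229% (0.0840 to 0.497). Its mean was 0.652% in aged cells and 0.116% in young cells, a log2 ratio of 2.48, and its adjusted p was 2.84e-07 in the authors' deposited table. Within methylated cells, C-to-U was 28.5% in aged and 43.5% in young cells at K1, and 24.0% in aged and 50.9% in young cells at K2. The young value of K2 rests on 6 cells. At both sites aged cells thus had the larger share of methylated cells and the lower C-to-U within them.

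The same combination held at most Snhg14 sites. Mean and share were higher, and C-to-U within methylated cells lower, in aged cells at 13 of the 16 Snhg14 sites and both Kcnq1ot1 sites, where 18.2% of all listed sites had it. Within methylated cells the Snhg14 sites had a median C-to-U of 19.8% in aged cells and 28.7% in young cells, and S4, S5 and S9 were the 3 with a higher value in aged cells. The median log2 ratio, aged over young, was 2.12 for mean C-to-U (0.92 to 3.45), 2.33 for the share (1.67 to 4.05) and -0.55 within methylated cells (-1.01 to 0.54). At each site the ratio of means is the sum of the other two, but the medians need not add up. The within-cell value is the mean divided by the share, so the limit of reads per cell given for the share applies to it too. The part of read depth in either measure was not tested.

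**Figure D4:**
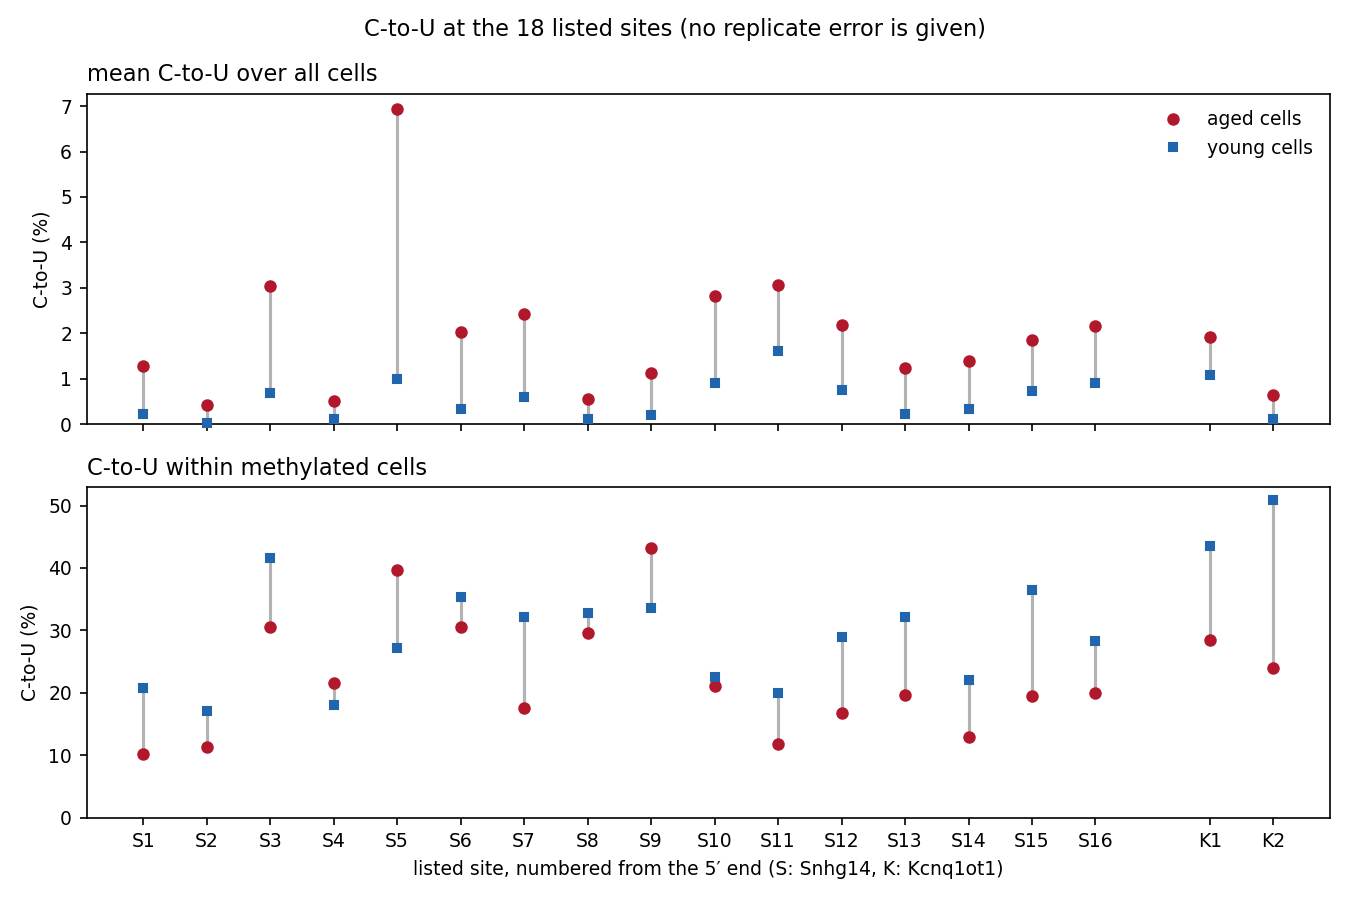
Mean C-to-U over all cells (top) and C-to-U within methylated cells (bottom), in percent, at the 18 listed sites, for aged cells (red circles) and young cells (blue squares). No replicate error is given in the table. In the top panel the aged value is the higher one at every site, and in the bottom panel at S4, S5 and S9.

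Against the whole table, these ratios lay towards the high end for the share and the mean and near the middle for the within-cell value. Over all listed sites with a methylated cell at both ages the median log2 ratio was 1.14 for the share, -0.87 for the mean and -0.84 within methylated cells. The Snhg14 median lay above 85.9% of listed sites for the share, 88.2% for the mean and 55.4% within methylated cells. The Kcnq1ot1 medians, 2.50, 1.65 and -0.85, lay above 89.2%, 81.0% and 49.7%.

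**Figure D5:**
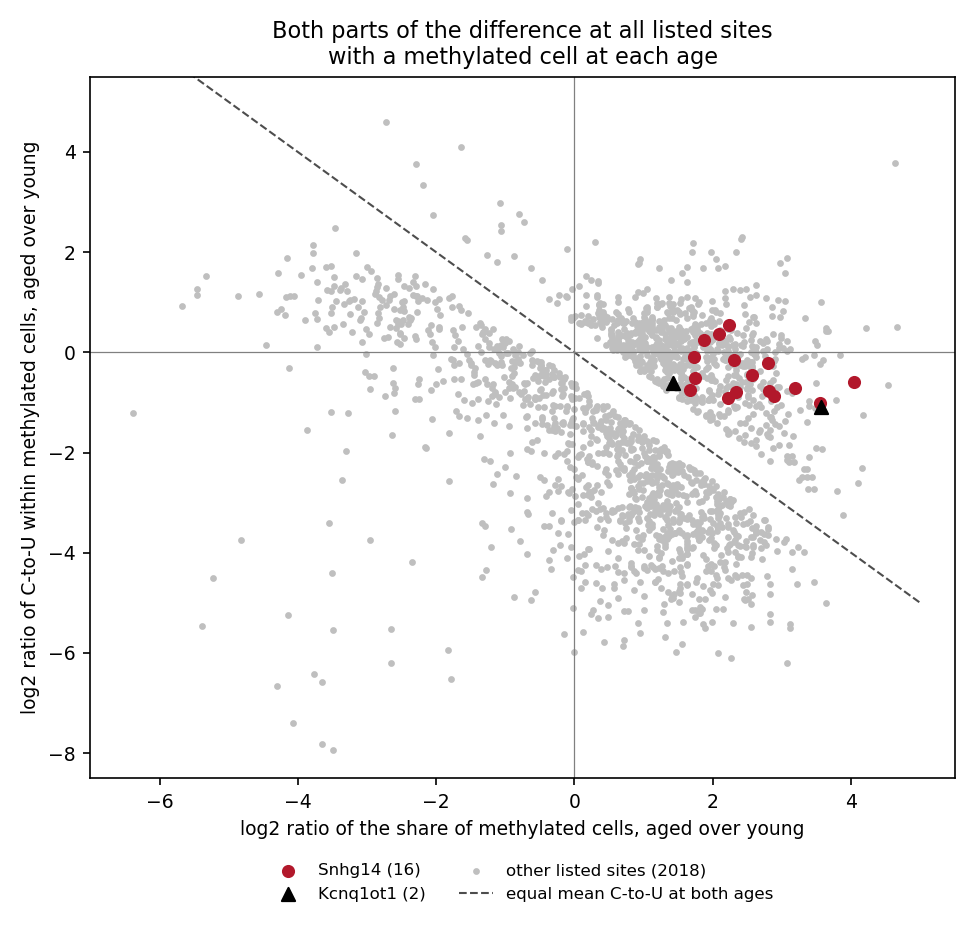
Log2 ratio, aged over young, of the share of methylated cells (x axis) and of C-to-U within methylated cells (y axis) at the listed sites with a methylated cell at each age, for Snhg14 (16 red circles), Kcnq1ot1 (2 black triangles) and the other 2018 sites (grey). Mean C-to-U is equal at both ages on the dashed line, and all 18 sites lie above it, 15 of them below the horizontal line at 0.

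Of the 27 genes with at least 10 listed sites, 1, Snhg14, had every site higher in aged cells by mean C-to-U. Next came Rbm25, a splicing regulator, with 17 of 26, and Pclo, an active zone scaffold, with 11 of 17. Many of the Snhg14 sites are copies, its 7 distinct positions are fewer than 10, and genes with fewer sites can have all of them higher too. Likeness was taken as the distance between genes in the medians of the log2 ratios of share and within-cell C-to-U, over the 70 genes with at least 5 listed sites. Gria3, an AMPA receptor subunit gene, was nearest to Snhg14 at 0.13, with a higher mean in aged cells at 4 of 5 sites. Syne1, a nuclear envelope protein gene, followed at 0.324, with 6 of 6 sites higher by mean, and then Rbm25 at 0.578. Nearest to Kcnq1ot1 were Gria3 at 0.237, Snhg14 at 0.342 and Erc2, an active zone gene, at 0.484 over 5 sites.

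Of a list of 78 other imprinted mouse genes, 9 had a listed site. The maternally expressed noncoding RNA Meg3 held 144 sites, of which 60 were higher in aged cells by mean C-to-U and 143 by the share of methylated cells. Rian, a snoRNA host transcript downstream of Meg3, had 0 of 8 higher by mean and 7 of 8 by share. The zinc finger gene Peg3 and the potassium channel gene Kcnk9 had 2 of 2 each by mean, the protein phosphatase partner Ppp1r9a and the scaffold gene Magi2 had 1 of 1 each, and Nap1l5 and Adam23 had 0 of 1 each. Over the 9 genes, aged cells were higher at 66 of 161 sites by mean, 158 of 161 by share and 22 of 161 within methylated cells, beside 41.5%, 75.4% and 31.9% of all listed sites.

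Ube3a, which the Snhg14 transcription unit silences on the paternal copy, had 1 listed site. It was methylated in 1.89% of aged cells and 1.07% of young cells, and its mean C-to-U was 0.337% in aged cells and 0.625% in young cells, so the mean was lower in aged cells and the share higher. In a list of named long noncoding RNAs, which does not hold every noncoding transcript of the table, those with a listed site other than Snhg14 and Kcnq1ot1 (Meg3, Malat1, Snhg11, Rian, Xist, Pantr1 and Snhg4) were higher in aged cells at 112 of 299 sites by mean, 274 of 299 by share and 46 of 299 within methylated cells. The higher share in aged cells was thus common in these RNAs.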

How the data were processed

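Libraries of APOBEC1-YTH cortex cells were made with a split-pool kit, per the labels' protocols. The submitters' processing notes name STAR 2.7.5 and mm10. C-to-U sites were found with Bullseye, per the series' design text. The sources used here do not give filters, the authors' test, or how depth and multiply matching reads were treated.

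For each site and age, the deposited values are the percent of methylated cells and, as a count, their number. Mean C-to-U is deposited as a fraction, which was read as averaged over every cell of an age, and it is given here in percent. Dividing it by the share of methylated cells gave the C-to-U within them. The p-values are the authors' own, as deposited. The deposited log2 ratio is young over aged and was turned round. All listed sites had an adjusted p under 0.05, and none had fewer than 25 methylated cells or an absolute log2 ratio under 0.58.

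Deposited positions were read as counted from 0, since 18 of 18 sites then fell on a C of the transcript strand, against 3 if counted from 1. Printed positions count from 1. Sequences came from GENCODE M21 transcripts, and 2037 listed sites were placed on an exon of their gene. Copies of an exon needed at least 30 aligned bases and 85% identity. Calculations used Python 3.11.15, pandas 2.3.3, scipy 1.17.1 and Biopython 1.88. The placing of sites on exons and the binomial intervals were tested on simulated data, and the other steps were not. Every site of both genes was named, and likeness and list rules are given with their results. The members and lists were chosen with earlier results of these data known. Alternatives were the measure of direction, stricter limits, centring, the base before the C and the handling of repeats.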

Additional observations from a re-analysis of the deposited data

How the results depend on the processing

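The count of 16 Snhg14 sites higher in aged cells by mean C-to-U was 3 by C-to-U within methylated cells. It was 7 of the 7 sites left when sites whose 41 bases recur were dropped. Of those 7, all but S4 still lie in repeated exons, so sites with near-identical copies were not removed. The count was also 7 of 7 with 1 site per repeated position, an alternative chosen after seeing the data. Relative to the median of all listed sites, the Snhg14 median log2 ratio was 2.99 for mean C-to-U and 1.18 for the share. For Kcnq1ot1, the count of 2 was 0 within methylated cells and 1 of the 1 site left with an adjusted p under 0.001, with at least 50 methylated cells or with A before the edited C. Its median log2 ratio of mean C-to-U was 2.52 relative to all listed sites, 2.48 at the stricter adjusted p, and 0.81 both with at least 50 methylated cells and with A before the C. The median for its share was 1.36 relative to all listed sites, 3.57 at the stricter adjusted p and 1.42 in both other cases. The Kcnq1ot1 values at the stricter adjusted p, with at least 50 methylated cells and with A before the C are each those of 1 site. The other 29 recomputed values stayed within 1.5 times the count or within the counting interval. The medians of the mean and the share kept their direction in the alternatives run for them, which did not include C-to-U within methylated cells. By that measure the median log2 ratios were negative, -0.55 for Snhg14 and -0.85 for Kcnq1ot1. Recurring sequence was looked for in annotated transcripts, not in a whole genome. No paired analysis was possible because the table has 1 pooled value per age, and for the same reason no library could be left out.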

Other observations

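Over the whole table, 12 sets of listed sites, 29 sites in all, had the same 21 bases around the edited C. Of these, 3 sets lay within Snhg14 and held 10 sites, and the other sets joined sites of different genes, such as Gria2, Nav1 and Plcb4.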
